A study of Mus musculus with 15 samples.

Results

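Effector and regulatory T cells are marked by particular genes, many of which immature thymocytes are known to keep silent. 10 such genes were examined, chosen by name and not by a measured value, but with earlier results of these data known. Tbx21, Eomes, Zeb2, Prdm1 and Batf were taken for effector transcription factors, and Gzma, Gzmb and Prf1 for cytotoxic molecules. Bcl6 and Foxp3 were taken for follicular helper and regulatory T cells. The set is 10 of 22350 protein-coding genes. All were measured in CD69-CD4+CD8+ double-positive cells, the immature stage before positive selection, taken as primary cells from wild type C57BL/6 thymus. ChIP-seq peak lists were used from 5 libraries: CTCF (1 library), Rad21 (2) and H3K27ac (2). The labels give neither an age nor a treatment. Whether the replicates of a target are separate animals is not stated either, and their spread may be only technical. The 8 Hi-C samples (4 wild type, 2 CTCF-/- and 2 with both CTCF-/- and Rad21-/-) and 2 input samples of the series were not analysed here. With a single condition there was no contrast to test, and each value is a description set beside the same value over all genes or regions.

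Cohesin is a ring-shaped complex, with Rad21 as its kleisin subunit, that extrudes DNA into loops. CTCF binds a directional DNA motif and halts cohesin there, so the strand of the motif bears on which way a loop can form. H3K27ac is an acetylated histone mark of active promoters and enhancers, where cohesin is also loaded or found without CTCF. Many of the genes named here are switched on as T cells become cytotoxic, helper, follicular or regulatory cells. Double-positive thymocytes are known to keep many of them silent, though not necessarily all. Expression was not measured in these libraries.

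For each gene the peaks of the 5 lists in its body and 50 kb on each side were collected, on genome build mm9. The 10 windows spanned 1329.05 kb and held 205 of 185702 peaks. Of these, 39 were CTCF peaks, 54 and 63 were Rad21 peaks of replicates 1 and 2, and 29 and 20 were H3K27ac peaks of replicates 1 and 2. Peaks of both replicates of a target were merged, and regions that both replicates contributed to are called shared below. The windows held 46 of 30959 shared Rad21 regions and 15 of 16230 shared H3K27ac regions. A promoter was the 2000 bp on either side of an annotated transcription start. Heights are the fold enrichment that the authors' peak caller gave over local background, so each is the peak's own value within its list. Distances are from the nearest annotated start of the gene to the Rad21 replicate 1 summit, or to the middle of an H3K27ac region.

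The sorted cell type was checked against marker genes. Of 10 double-positive thymocyte genes, 10 had a shared H3K27ac region and 10 a shared Rad21 region at a promoter. Of 5 genes of mature T cells, 3 had shared H3K27ac. The defining genes of other cells of the thymus were mostly unmarked: 0 of 5 for NK cells, 0 of 5 for thymic epithelium, 1 of 5 for B cells and 1 of 5 for myeloid cells carried shared H3K27ac. Shared Rad21 was at 0 of 5 in each of these other lists. Over all genes 41.5% had shared H3K27ac and 31.5% shared Rad21, so counts out of 5 say little alone. Peak lists hold no read counts, so depth is unknown.

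The sequences below are the CTCF sites at the Rad21 regions the results turn on, read from NCBIM37, the assembly that mm9 displays. Each is printed 5′ to 3′ on the strand of the match, with the 13 bases that best match the CTCF core consensus in capitals. The first 8 are matches at or under the limit of 2 mismatches, and the last 3 are the best stretch at CTCF-bound regions where no match reached that limit.
Eomes, 10989 bp downstream of the nearest start, 0 mismatches, chr9:118398956-118398996, minus strand: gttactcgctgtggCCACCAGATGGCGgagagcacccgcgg
Tbx21, 13433 bp downstream, 0 mismatches, chr11:96963185-96963225, plus strand: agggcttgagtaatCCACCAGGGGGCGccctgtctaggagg
Tbx21, 31582 bp upstream, 0 mismatches, chr11:97008227-97008267, minus strand: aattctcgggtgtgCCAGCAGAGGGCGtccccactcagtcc
Prf1, 38458 bp downstream, 0 mismatches, chr10:60799018-60799058, minus strand: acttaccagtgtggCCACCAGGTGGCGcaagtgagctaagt
Bcl6, 4461 bp downstream, 0 mismatches, chr16:23984435-23984475, plus strand: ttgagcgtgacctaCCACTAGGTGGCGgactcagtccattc
Gzmb, 42119 bp upstream, 1 mismatch, chr14:56923196-56923236, minus strand: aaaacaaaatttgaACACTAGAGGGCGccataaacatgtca
Batf, 23602 bp upstream, 1 mismatch, chr12:87004005-87004045, minus strand: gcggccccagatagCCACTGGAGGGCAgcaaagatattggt
Gzma, 53947 bp downstream, 2 mismatches, chr13:113836844-113836884, plus strand: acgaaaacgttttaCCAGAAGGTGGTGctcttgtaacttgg
Bcl6, 2499 bp upstream, 3 mismatches, chr16:23991395-23991435, plus strand: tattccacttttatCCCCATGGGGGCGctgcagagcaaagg
Bcl6, 3310 bp downstream, 3 mismatches, chr16:23985575-23985615, plus strand: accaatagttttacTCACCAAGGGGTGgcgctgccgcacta
Prdm1, 1566 bp upstream, 3 mismatches, chr10:44180071-44180111, plus strand: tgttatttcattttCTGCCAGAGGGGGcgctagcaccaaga

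Promoters of the 10 genes fell into 5 patterns of H3K27ac, Rad21 and CTCF. Tbx21, Gzmb and Foxp3 had none of the marks, a pattern of 49.1% of all protein-coding genes. Prf1 had shared H3K27ac alone, as did 13.2% of all genes. Gzma and Bcl6 had H3K27ac with Rad21 and no CTCF (10.3% of all genes). All 10 double-positive marker genes had this pattern too, as did the mature T cell gene Klf2. Eomes and Zeb2 had Rad21 with CTCF and no H3K27ac (5.20%), and Prdm1 and Batf had all 3 marks (15.0%). In counts, 5 of the 10 promoters had shared H3K27ac where 41.5% of all genes did, 6 had shared Rad21 where 31.5% did, and 4 had CTCF where 26.4% did. In single lists, Rad21 peaks were at 6 promoters in replicate 1 and 7 in replicate 2, where 36.2% and 43.6% of all genes had them, and H3K27ac peaks at 5 in each replicate, where 44.7% and 43% did. When every list was held to a −log10 q of 5 or more, 0 of the 10 promoters had a shared H3K27ac region, and 5.17% of all genes did. The H3K27ac lists include peaks of low confidence: 32.4% and 38.4% of those in replicates 1 and 2 had −log10 q under 1.3. At the promoters of Gzma and Batf the replicate 2 peaks had 0.800 and 0.262. Those of Prf1, Prdm1 and Bcl6 lay above 1.3 in both replicates. The CTCF count was 2 with promoters of 500 bp, where 16.9% of all genes had CTCF, and 2 with the 5′ end of the gene model alone, where 21.2% did.

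**Figure D1:**
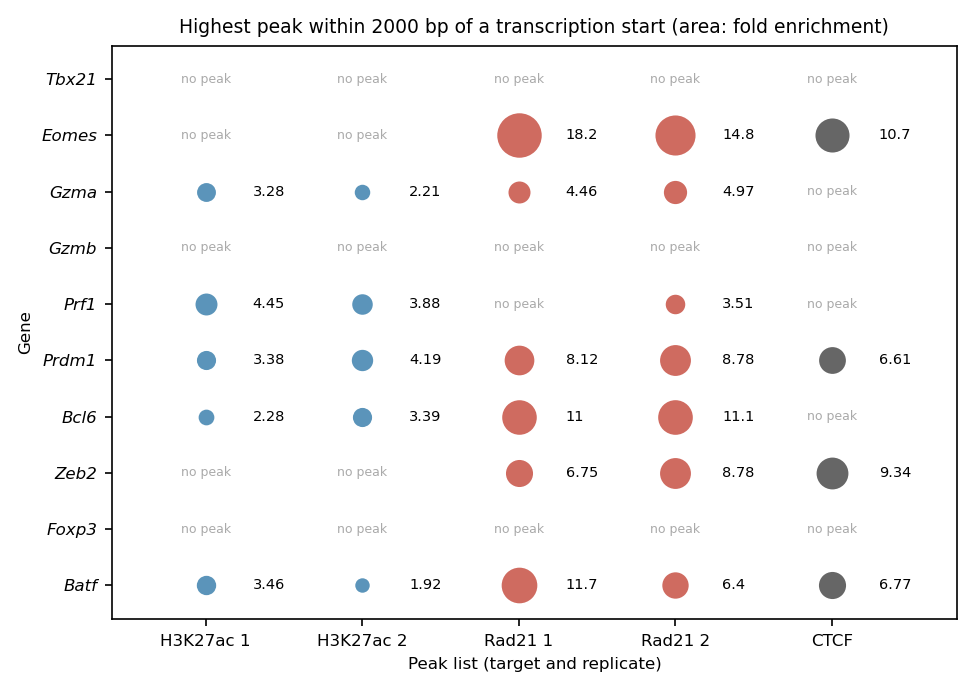
Fold enrichment of the highest peak within 2000 bp of any transcription start of each gene (rows), in each of the 5 peak lists (columns), with the area of a point proportional to the fold printed beside it. Eomes has the highest Rad21 folds of the 10 in both replicates (18.2 and 14.8) with no H3K27ac peak, and Tbx21, Gzmb and Foxp3 have no peak in any list.

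Among the transcription factors, Tbx21 encodes T-bet, the T-box factor of type 1 helper and cytotoxic cells. Its promoter had no peak in any of the 5 lists, although 7 CTCF peaks and 5 shared Rad21 regions lay in its window (chr11:96909385-97026645). All 5 Rad21 regions overlapped CTCF. The highest in the lower of both replicates lay 31582 bp upstream, in an intron of Tbkbp1 (chr11:97008086-97008361), with Rad21 folds of 13.9 and 11.9 in replicates 1 and 2 and a CTCF fold of 13.9, the highest CTCF peak of the window. Another lay inside Tbx21, in an intron 13433 bp downstream of the start (chr11:96963053-96963339), with folds of 8.15 and 11.7. Both had an exact consensus match, and these pointed in opposite directions: minus upstream and plus within the gene, which is itself on the minus strand. The single shared H3K27ac region of the window was at the promoter of the neighbour Osbpl7, with folds of 6.58 and 1.56.

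Eomes encodes eomesodermin, the T-box factor of memory CD8 and NK cells. Its promoter had Rad21 folds of 18.2 and 14.8 and a CTCF fold of 10.7 (chr9:118388153-118388494). A higher region lay 10989 bp downstream of the nearest start, past the end of the gene (chr9:118398648-118399118). Its Rad21 folds were 58.8 and 69.2, at percentiles 99.4 and 99.5 of the peaks of each list, over a CTCF peak of fold 13.2. Both sites had a match on the minus strand, against the plus strand of Eomes. The single CTCF-free Rad21 region of the window (folds 5.43 and 7.53) and its single shared H3K27ac region (2.75 and 2.18) were at the promoter of the next gene, Golga4, whose start lies 28063 bp from the 5′-most start of Eomes.

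Zeb2 encodes a zinc-finger homeobox repressor of terminal effector cells. The gene has 10 annotated starts in the gene models, and its window of 233.762 kb is the longest of the 10. A CTCF-bound Rad21 region lay 83 bp from a start (chr2:44968493-44968766; Rad21 6.75 and 8.78, CTCF 9.34), and it had no consensus match. A CTCF-free region without H3K27ac lay 319 bp from another start (3.99 and 6.44). Shared H3K27ac lay past the 3′ end of Zeb2 as 2 regions, in intergenic sequence where the nearest annotated start is that of Gtdc1. The region of 3554 bp (chr2:44834497-44838050) lay just past the 3′ end of Zeb2, which is at 44839154. That of 3077 bp held a CTCF-free Rad21 region with folds of 5.03 and 8.63, 149517 bp from the nearest start of Zeb2. That of 3554 bp held another with folds of 3.35 and 5.61, at 128438 bp. This Rad21 region lay under the replicate 1 H3K27ac peak, and the replicate 2 peak (chr2:44834705-44835465) did not reach it. In replicate 2 the H3K27ac peaks of these 2 regions had −log10 q of 0.838 and 0.941.

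Prdm1 encodes Blimp-1, a transcriptional repressor that drives effector and plasma cell differentiation. It had 4 CTCF-free Rad21 regions and 1 CTCF-bound region. The highest CTCF-free region was in an intron, 10341 bp downstream of the nearest start (chr10:44167921-44168452), with Rad21 folds of 11.4 and 16.8 inside an H3K27ac region of 2919 bp with folds of 3.67 and 5.40. At a start inside the gene a further CTCF-free region had Rad21 folds of 8.12 and 8.78, beside H3K27ac folds of 3.38 and 3.35. The region 1075 bp upstream of the 5′-most start had 7.81 and 5.27, beside H3K27ac folds of 3.28 and 4.19. The single CTCF-bound region lay 1566 bp from a start (chr10:44180019-44180236), with Rad21 folds of 8.10 and 7.82 and a CTCF fold of 6.61. Its best stretch had 3 mismatches.

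Batf encodes an AP-1 family factor needed for several helper cell fates. Its window held 7 shared Rad21 regions and 4 shared H3K27ac regions, or 3.27 per 100 kb for H3K27ac, the highest of the 10 genes. Each of the 4 H3K27ac regions had a peak with −log10 q under 1.3 in 1 replicate or both. The promoter had H3K27ac folds of 3.46 and 1.92, Rad21 folds of 11.7 and 6.40, and a CTCF fold of 6.77. The H3K27ac region was centred 114 bp upstream of the start, and the shared, CTCF-bound Rad21 region lay 1407 bp downstream, outside it. A Rad21 peak of replicate 2 alone, of fold 5.85, lay inside the H3K27ac region, 38 bp upstream of the start of Batf. The highest Rad21 region lay 23602 bp upstream (chr12:87003823-87004320) with folds of 38.5 and 45.8 and a CTCF fold of 12.9. The CTCF-free region with the highest folds (7.74 and 7.97) lay at the promoter of the next gene, Mfsd7c, and its widest H3K27ac region, of 4147 bp, reached over an exon of the upstream gene Jdp2.

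**Figure D2:**
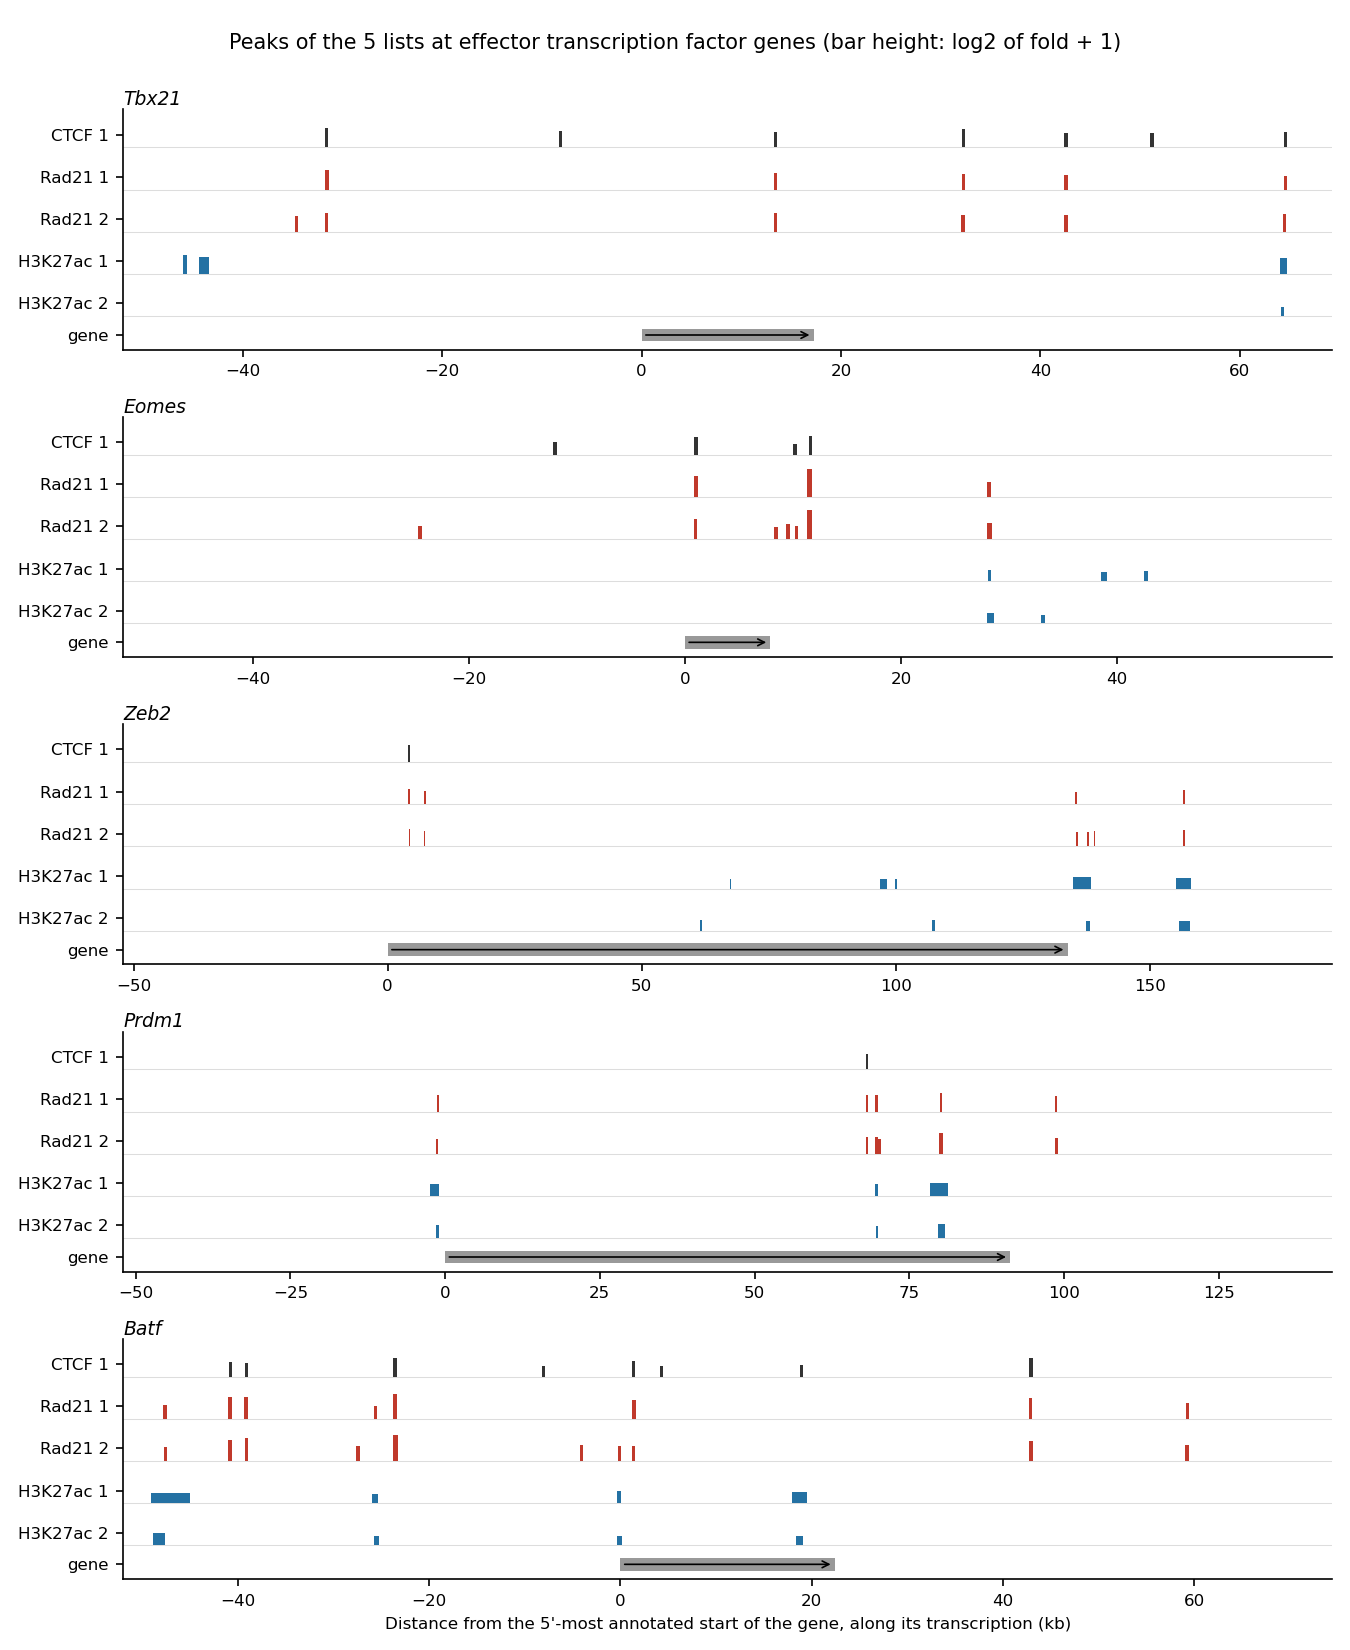
Peaks of the 5 lists along the windows of Tbx21, Eomes, Zeb2, Prdm1 and Batf, with distance from the 5′-most start in kb on the horizontal axis, the direction of transcription to the right and bar height as log2 of fold plus 1. Around Tbx21 all 5 shared Rad21 regions stand under CTCF peaks, while in Prdm1 4 of 5 stand without CTCF.

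Among the cytotoxic molecules, Gzma and Gzmb encode granzymes A and B, serine proteases of the killing granule, and Prf1 encodes perforin, which forms pores in the target membrane. Gzma had a shared H3K27ac region of 4718 bp from its promoter into the gene (chr13:113887174-113891891), with folds of 3.28 and 2.21. Rad21 lay in it 79 bp upstream of the start (chr13:113891153-113891384) with folds of 4.46 and 4.97 and no CTCF peak. The highest Rad21 region of the window was CTCF-bound, at the promoter of Gpx8 (chr13:113836462-113837010), with folds of 24.5 and 18.2 over a CTCF fold of 6.47.

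The Prf1 promoter had H3K27ac folds of 4.45 and 3.88 (chr10:60759989-60760776). A Rad21 peak of fold 3.51 was listed there in replicate 2 and none in replicate 1. The window held 6 shared Rad21 regions, 4 with CTCF and 2 without. The highest lay 38458 bp downstream, in an intron of X99384 (chr10:60798883-60799216), with folds of 29.0 and 28.1 over a CTCF fold of 8.34. The highest CTCF peak of the window, of fold 13.7, lay 46342 bp downstream in an exon of the same gene. The CTCF-free regions lay at the promoter of Adamts14 (6.87 and 7.03) and 20893 bp downstream of Prf1 (5.74 and 8.65), and neither had H3K27ac.

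Gzmb had no peak of any list at its promoter and no shared H3K27ac region in its window, the only such window of the 10. Its single shared Rad21 region lay 42119 bp upstream (chr14:56922998-56923376), with Rad21 folds of 20.9 and 26.96 and a CTCF fold of 11.4. The 3 granule genes, which are used together in killer cells, had 3 different promoter patterns in these thymocytes. These patterns rest on weak peaks. At Gzma the −log10 q was 3.13 and 4.84 for Rad21 and 4.66 and 0.800 for H3K27ac. At Prf1 it was 6.88 and 3.18 for H3K27ac. With every list held to a −log10 q of 5 or more, none of the 3 promoters kept a shared region.

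The 250 bases before the 5′-most start are shown for the granule genes, since their promoters differ in the marks they carry. They were read from NCBIM37 on the strand of the gene, with capitals for matches on either strand to TGTGGT (the Runx word), CAGCTG (an E-box) and AGGAAGT (the Ets word).
Gzma, chr13:113891188-113891437, minus strand: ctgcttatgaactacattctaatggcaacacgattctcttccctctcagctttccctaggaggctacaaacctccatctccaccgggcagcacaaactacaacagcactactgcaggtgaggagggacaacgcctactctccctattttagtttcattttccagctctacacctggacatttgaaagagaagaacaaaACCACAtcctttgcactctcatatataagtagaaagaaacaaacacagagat
Gzmb, chr14:56881098-56881347, minus strand: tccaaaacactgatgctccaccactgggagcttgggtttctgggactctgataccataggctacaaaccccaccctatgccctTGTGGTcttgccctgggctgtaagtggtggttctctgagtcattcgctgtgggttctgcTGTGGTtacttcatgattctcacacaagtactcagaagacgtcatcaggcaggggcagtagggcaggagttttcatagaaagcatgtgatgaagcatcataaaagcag
Prf1, chr10:60760334-60760583, plus strand: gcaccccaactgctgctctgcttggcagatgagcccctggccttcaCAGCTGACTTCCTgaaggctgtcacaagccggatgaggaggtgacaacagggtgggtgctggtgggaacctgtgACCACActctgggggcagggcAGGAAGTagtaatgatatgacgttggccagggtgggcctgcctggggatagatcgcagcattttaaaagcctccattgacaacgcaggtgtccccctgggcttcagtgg
The Runx word or its reverse complement stood in the promoters of 5 members, Gzma, Gzmb, Prf1, Prdm1 and Batf, and in 12.7% of all promoters of this length. The E-box stood in that of Prf1 (11.8% of all), where an Ets match on the other strand follows it directly, with no base between or shared. The Ets word stood in those of Tbx21 and Prf1 (7.19%), and CTTTGA, the Tcf word, in 0 of 10 (13.4%). A match is letters in a window and not a bound site. The promoters also differed in CpG content, taken from 250 bases before to 50 after the start: the ratio of observed to expected CpG was 0.101 for Gzmb, 0.203 for Prf1, 0.306 for Gzma, 0.754 for Tbx21 and 1.05 for Bcl6, beside a median of 0.534 over all genes. The other members lay between 0.484 (Batf) and 0.549 (Eomes). So Tbx21, with no mark, was more CpG-rich than Gzma and Prf1, which had H3K27ac. Over all genes the order was the reverse, with a median of 0.266 at promoters with no mark. It was 0.770 with H3K27ac alone and 0.802 with H3K27ac and Rad21. Gzmb, with no mark, and Bcl6, with H3K27ac and Rad21, followed that order.

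Bcl6 encodes the repressor that directs follicular helper T cells and germinal centre B cells. Its window was the densest in Rad21, with 13 shared regions or 10.5 per 100 kb, at percentile 97.8 of all genes. Of the 13, 9 overlapped CTCF and 4 did not. The 4 CTCF-free regions were all at its promoters, under a shared H3K27ac region of 5982 bp (chr16:23984156-23990137, folds 2.28 and 3.39), the widest of the 15. The highest of the 4 in the lower of both replicates had Rad21 folds of 8.82 and 11.1 (chr16:23986098-23987436). On either side of the 4 stood the highest CTCF-bound regions. That 2499 bp upstream (chr16:23991218-23991873) had Rad21 folds of 61.9 and 73.8 and a CTCF fold of 17.8, and that 3310 bp downstream, in an intron (chr16:23984935-23985987), had 41.8 and 51.5 with a CTCF fold of 10.8. The upstream region had the highest Rad21 and CTCF folds of all 10 windows. Neighbouring regions of this gene lie close together and are not independent.

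Foxp3 encodes the factor that defines regulatory T cells. Its window (chrX:7106802-7222369) held no shared Rad21 region, the only such window of the 10. Its single CTCF peak had a fold of 3.31 and a −log10 q of 0.696, at the promoter of the neighbour Ccdc22. Rad21 peaks were listed in 1 replicate each, with a fold of 4.72 in replicate 1 at the promoter of Syp and of 4.52 in replicate 2 at a promoter of Ppp1r3f. The shared H3K27ac region of the window was at another start of Ppp1r3f, 5496 bp upstream of Foxp3, with folds of 1.90 and 1.59.

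**Figure D3:**
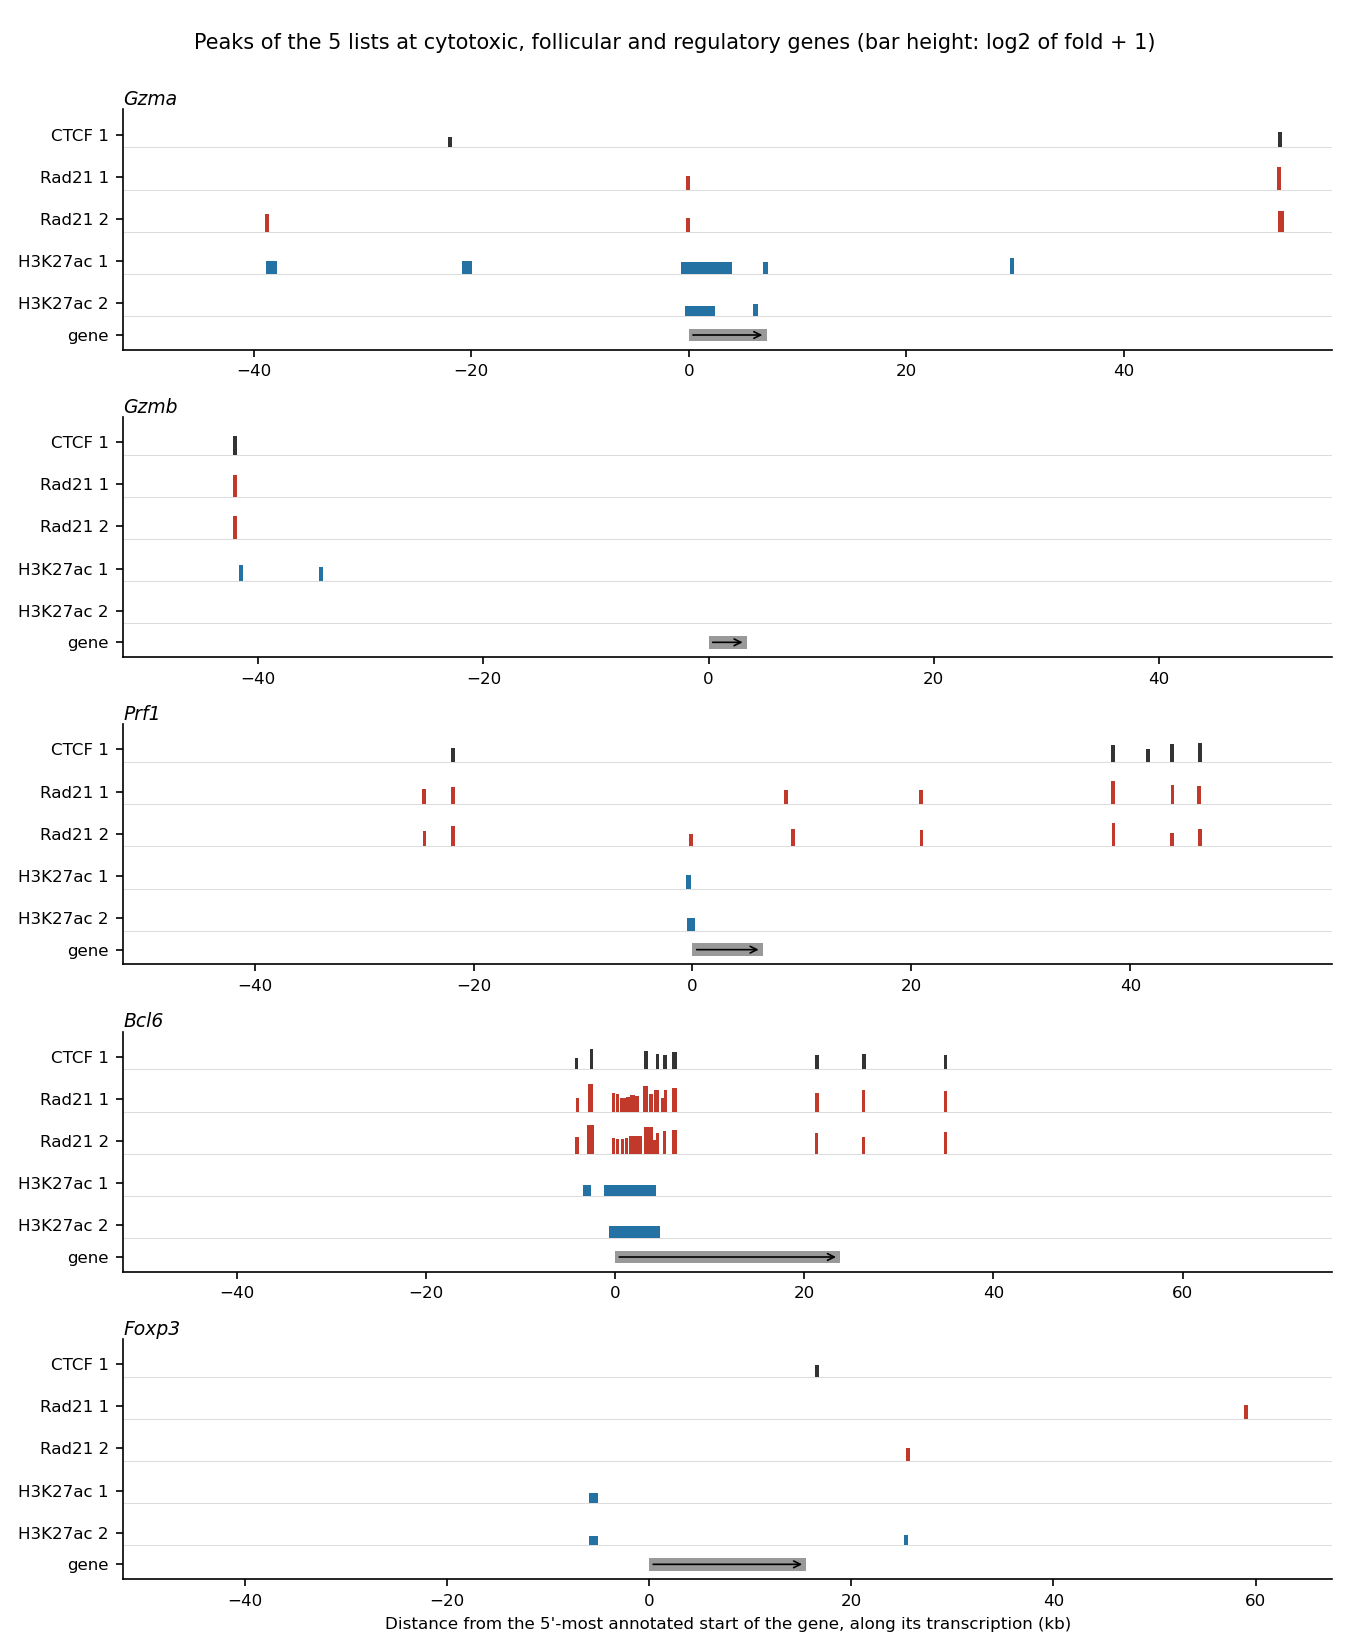
Peaks of the 5 lists along the windows of Gzma, Gzmb, Prf1, Bcl6 and Foxp3, with distance from the 5′-most start in kb on the horizontal axis, the direction of transcription to the right and bar height as log2 of fold plus 1. Bcl6 holds 13 shared Rad21 regions, most near its start, while Foxp3 holds none and Gzmb has 1, which lies 42119 bp upstream.

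The level of Rad21 at the promoters can be put in order within each list. In replicate 1 the order was Eomes (18.2), Batf (11.7), Bcl6 (11.01), Prdm1 (8.12), Zeb2 (6.75) and Gzma (4.46). In replicate 2 it was Eomes (14.8), Bcl6 (11.1), Prdm1 and Zeb2 (8.78 each), Batf (6.40), Gzma (4.97) and Prf1 (3.51). Eomes was first in both, and Gzma stayed below the same 5 genes. The order of Batf, Bcl6, Prdm1 and Zeb2 changed between replicates, with Batf moving from the second place to the fifth.

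Across the windows, at least 1 CTCF peak was present for 10 of 10 genes (82.1% of all genes) and at least 1 shared Rad21 region for 9 (75.2%). At least 1 CTCF-bound shared Rad21 region was found for 9 (72.3%), at least 1 CTCF-free region for 7 (43.5%) and at least 1 shared H3K27ac region for 9 (67.6%). Shared Rad21 density over the 10 windows had a lowest value of 0, a median of 2.70 and a highest of 10.5 regions per 100 kb, beside a median of 1.95 and quartiles of 0.168 and 4.16 over all genes. CTCF density ranged around a median of 2.79 peaks per 100 kb (0.428 to 7.27), beside 2.47 over all genes. H3K27ac density had a median of 0.896 regions per 100 kb (0 to 3.27), beside 0.982. The medians of all 3 lay inside the quartiles of all genes, and Bcl6, Batf, Prf1 and Tbx21 lay above the upper quartile for both Rad21 and CTCF. For CTCF-free shared Rad21 regions alone the median was 1.11 per 100 kb. That lay above the upper quartile of 0.989 over all genes, whose median was 0.

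**Figure D4:**
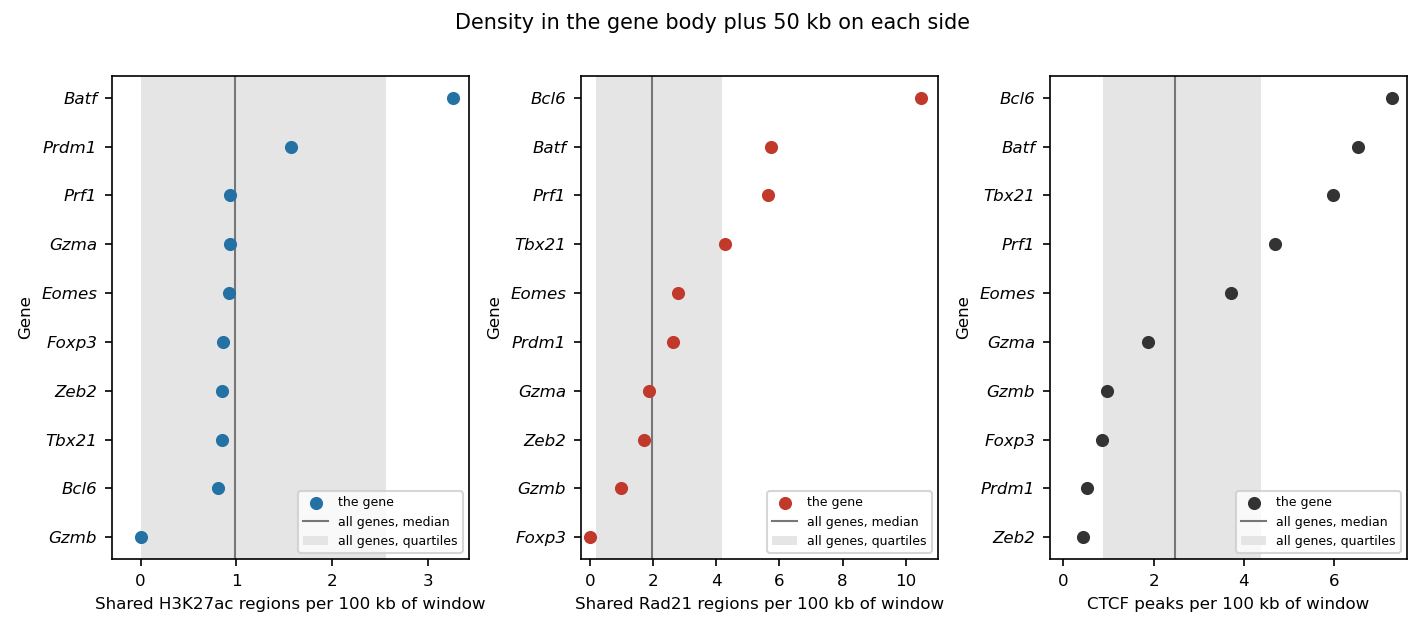
Shared H3K27ac regions, shared Rad21 regions and CTCF peaks per 100 kb of window for the 10 genes (points), each panel ordered by its own values, with the median (line) and quartiles (band) of all protein-coding genes. Bcl6 has the highest Rad21 and CTCF densities (10.5 and 7.27), and Batf has the highest H3K27ac density (3.27).

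Rad21 at these genes was of 2 kinds, with and without CTCF. Of the 46 shared regions, 29 overlapped a CTCF peak (63.0%; all shared regions 65.9%) and 17 did not. By replicate, 50.7% ± 4.30 of all Rad21 peaks in the windows overlapped CTCF (SD, n = 2). Only 3 of the 29 CTCF-bound regions overlapped shared H3K27ac (10.3%), whereas 12 of the 17 CTCF-free regions did (70.6%). Over all shared regions the numbers were 3824 of 20400 CTCF-bound and 7604 of 10559 CTCF-free. A single H3K27ac region, at Bcl6, held 6 of the Rad21 regions with H3K27ac, 4 of them CTCF-free. The shares with H3K27ac were not taken without Bcl6. Among the 12, the Zeb2 region at 128438 bp lay under an H3K27ac peak of replicate 1 alone. With H3K27ac replicate 2 alone the CTCF-free share was 64.7%. Taken by single Rad21 replicate, the share with H3K27ac was 10.2% ± 0.244 for CTCF-bound and 59.8% ± 11.7 for CTCF-free peaks (SD, n = 2). The median Rad21 fold was 18.2 and 17.0 at CTCF-bound regions (replicates 1 and 2) and 6.87 and 7.03 at CTCF-free regions, a ratio of 2.53 as the geometric mean over replicates. Over all shared regions the medians were 12.8 and 15.0 at CTCF-bound and 6.07 and 7.35 at CTCF-free regions. The Bcl6 window alone gave 9 of the 29 CTCF-bound and 4 of the 17 CTCF-free regions. The median of its CTCF-bound regions lay above that of the 29 in both replicates. Pooled medians were not taken without Bcl6, so whether the higher CTCF-bound medians hold for the other genes was not tested. The ranges overlapped: CTCF-bound regions ran from 4.72 to 61.9 in replicate 1 and CTCF-free regions from 3.35 to 11.4.

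**Figure D5:**
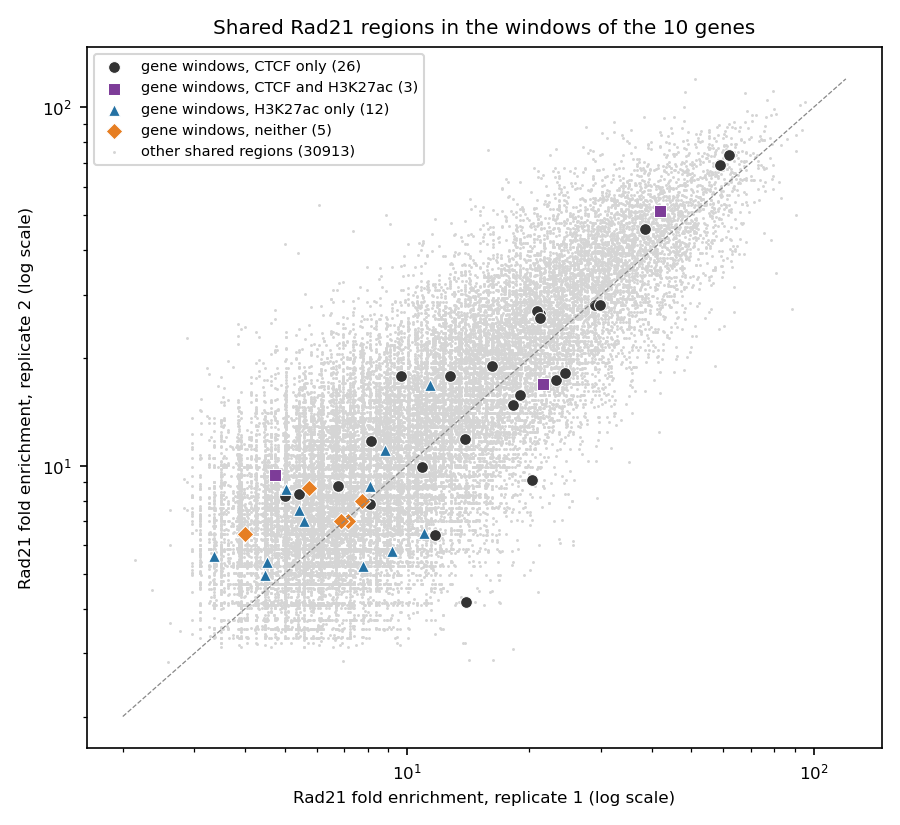
Rad21 fold enrichment in replicate 1 (horizontal) and replicate 2 (vertical), both on log scales, for the 46 shared regions in the windows of the 10 genes, by overlap with CTCF and H3K27ac, and for all other shared regions (grey); the dashed line marks equal values. The CTCF-free regions (triangles and diamonds) lie at or below 11.4 in replicate 1, and the regions above that are CTCF-bound (circles and squares).

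Both kinds occurred at promoters and elsewhere. Of the 29 CTCF-bound regions, 4 were at a promoter of a member and 2 at that of a neighbour, and 13 were intergenic, 9 intronic and 1 exonic. Of the 17 CTCF-free regions, 8 were at a promoter of a member and 3 at that of a neighbour, and 4 were intergenic, 1 intronic and 1 exonic. Of the 8, 4 are the adjoining Bcl6 regions under a single H3K27ac region. Over all shared regions, 22.2% of the CTCF-bound and 40.8% of the CTCF-free had their summit at a promoter. Of the 15 shared H3K27ac regions, 10 held shared Rad21 (49.3% of all shared H3K27ac regions) and 9 held CTCF-free Rad21 (34.8%). Among them 6 were at promoters of members, 3 at those of neighbours and 6 elsewhere.

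The CTCF core consensus stood within 50 bp of the summit at 20 of the 29 CTCF-bound regions in replicate 1 (68.97%) and at 21 in replicate 2 (72.4%), beside 84.3% and 83.4% of all CTCF-bound shared regions. Of the 9 without it in replicate 1, 5 were in the Bcl6 window, and without Bcl6 16 of 20 had it. Of the sequences above, those of Eomes, Tbx21 and Prf1 are exact. Both of the highest Bcl6 sites carry 3 mismatches under Rad21 folds of 61.9 and 41.8. This contrast holds for the sites shown and not for all sites of these genes. Exact matches stood at 1 of 2 CTCF-bound regions of Eomes and 2 of 5 of Tbx21. They stood at 2 of 4 of Prf1 and 1 of 9 of Bcl6. By place, 2 of 6 CTCF-bound regions at promoters had the consensus, and 18 of 23 elsewhere. The share by place was not taken over all CTCF-bound regions. Over all of them, 58.6% of those with H3K27ac and 90.2% of those without had the consensus in replicate 1. The CTCF and Rad21 summits were close, with a median distance of 18 bp (0 to 59), beside 14 bp over all CTCF-bound regions. The consensus also stood at 4 of the 17 CTCF-free regions in replicate 1, among them 3 of the 5 with neither CTCF nor H3K27ac. The shares over all such regions were 21.1% and 51.7%, near those of the members.

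The strand of the consensus changed along the windows with several sites. In order of rising coordinate the matches read plus, minus, plus, minus at Tbx21 and the same at Prf1. They read plus, minus, minus, minus at Batf, and minus, plus, plus, plus at Bcl6. At Eomes both were minus. At Gzma the single match was plus and at Gzmb minus. Of the 20 matches, 7 were on the strand of the gene whose window they lay in, and 6 were exact.

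Of the 39 CTCF peaks, 29 held a shared Rad21 region (74.4%; all CTCF peaks 58.2%). Those with Rad21 had a median CTCF fold of 7.17 and those without one of 3.25. The CTCF list includes peaks of low confidence, and 8 of the 39 in these windows had −log10 q under 1.3 (all CTCF peaks 29.1%). Of these 8, 1 held shared Rad21 (19.6% of all such peaks): it lay 4009 bp upstream of Bcl6 at the Rad21 summit and had a CTCF fold of 3.14.

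The CTCF-free regions differed in their letters within 150 bp of the summit. The Ets word AGGAAGT was at 5 of 17 (16.1% of all CTCF-free shared regions), the Runx word TGTGGT at 5 (26.2%), the Tcf word CTTTGA at 4 (18.7%) and the E-box CAGCTG at 2 (24.8%), on either strand. The intronic Prdm1 region, the highest CTCF-free region of the 10 windows by the lower of both folds, held the Ets and Tcf words. It is shown as the 151 bases around its replicate 1 summit on the plus strand, with those words (here as reverse complements) in capitals.
Prdm1 intron, 10341 bp downstream of the nearest start, chr10:44168077-44168227, plus strand: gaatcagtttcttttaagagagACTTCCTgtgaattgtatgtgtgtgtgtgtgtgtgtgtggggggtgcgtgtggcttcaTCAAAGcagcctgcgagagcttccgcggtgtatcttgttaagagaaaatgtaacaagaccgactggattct

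Other genes of the same pathways were taken from a list of 26. At their promoters 11 had shared H3K27ac (41.5% of all genes), 9 shared Rad21 (31.5%) and 7 CTCF (26.4%), and 13 had none of the 3 (49.1%), which are shares near those of all genes. The pattern of Prdm1 and Batf, all 3 marks, was found at 5 of the 26. Among these were Gata3, the factor of type 2 helper cells (H3K27ac 3.41 and 4.84, Rad21 13.9 and 18.0, CTCF 6.84), and Maf, a factor of follicular helper cells (H3K27ac 2.32 and 2.01, Rad21 16.9 and 17.0, CTCF 9.01). The pattern of Gzma and Bcl6 was found at 2. The pattern of Eomes and Zeb2 was found at 1, Runx3, the factor of the CD8 lineage, with Rad21 folds of 47.2 and 32.2 and a CTCF fold of 19.1. The pattern of Prf1 was found at 3, among them Stat4, a signal transducer of interleukin-12 (H3K27ac 2.24 and 1.84), and Pdcd1, the inhibitory receptor PD-1 (5.42 and 2.91).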

How the data were processed

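The peak lists used are 1 CTCF and 2 Rad21 lists in the narrow peak format and 2 H3K27ac lists in the broad peak format, 1 per library. Per the submitters' processing notes the genome build is mm9, and CASAVA 1.82 and 1.84, Bowtie 1.0.0, Bowtie2 2.3.2, HiC-Pro 2.7.8, Juicer 0.7.5 and MACS2 2.1.0 were used in the series, without a role for each. The sources used here name neither the thresholds nor the controls of peak calling. The fold enrichment is a ratio over local background, deposited by the authors for each peak. The −log10 p and −log10 q values were deposited by the authors and used as filters in alternatives. The score deposited by the authors was not used. Peaks of equal coordinates were counted once, on chromosomes 1 to 19 and X. This left 35345 CTCF, 38430 and 48462 Rad21 and 38700 and 24765 H3K27ac peaks.

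Overlap needed 1 bp. Gene models were GENCODE vM1 on NCBIM37. Rad21 summits were scanned 50 bp to either side, on both strands, for the 13-base CTCF core consensus with up to 2 mismatches. Scripts used Python 3.11.15, numpy 2.4.6, pandas 2.3.3 and pysam 0.24.0, and were tested on simulated data. Samples were grouped by their labels, and no test was made, since the lists come from a single condition. Alternatives changed the flank, the promoter, the thresholds, the overlap, the summit window and the mismatches, or left out a replicate. All 10 genes are named, and in each window the promoter regions, the highest CTCF-bound and CTCF-free Rad21 regions by the lower of both folds, the highest CTCF peak and the widest H3K27ac region. Pathway genes are named, up to 6 in list order, where their promoter pattern equals that of a member with a mark. Values of 1 such gene are not reported here. Further regions of a window are named to complete its account and were chosen after their values were seen. The genes, lists and rules were chosen with earlier results of these data known.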

Additional observations from a re-analysis of the deposited data

How the results depend on the processing

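Of 95 alternative values, 68 stayed within the limits set for them and 27 moved. For counts and densities the limit was a change of 1.5-fold. For shares and the ratio of folds it was the SD of the values from each Rad21 replicate alone (n = 2). The values without a Rad21 replicate thus also set the limit they were held to. With every list held to a −log10 q of 5 or more, the members with a shared H3K27ac promoter region, the H3K27ac regions per 100 kb and both shares of Rad21 regions with H3K27ac fell to 0, CTCF peaks per 100 kb to 1.66 (all windows pooled; 2.93 without the filter) and the share of Rad21 regions on CTCF to 55.6%. CTCF was at 2 member promoters in place of 4 with promoters of 500 bp and with the 5′ end of the gene model alone. Gene bodies with no flank gave 2.13 H3K27ac regions per 100 kb (1.13 with the flank), 20% of CTCF-bound and 85.7% of 7 CTCF-free regions with H3K27ac, and the consensus at 40%. With 25 kb flanks 55.9% of Rad21 regions lay on CTCF and 57.9% of those had the consensus; with 100 kb flanks 72.9% had it, and 6.25% had H3K27ac. An overlap of 50% of the shorter region put 67.4% on CTCF, a CTCF −log10 q of at least 1.3 gave 10.7% of CTCF-bound regions with H3K27ac, and at most 1 mismatch gave the consensus at 48.3%.

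Leaving out a replicate uses the peaks of the other alone. The share on CTCF was then 47.6% to 53.7%, H3K27ac regions per 100 kb 1.505 to 2.18, the consensus 68.97% to 73.3%, the share with H3K27ac 10.0% to 13.8% of CTCF-bound and 51.5% to 70.6% of CTCF-free regions, and the ratio of median folds 2.54 to 3.27. Peaks listed in 1 replicate enter these values and not the shared ones; the cause of the shifts was not tested. No paired analysis was possible because the result comes from no test and the groups are different targets. CTCF has a single library, so its peaks have no replicate check.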

Other observations

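Some peaks of the windows were listed in 1 replicate and belong to no shared region. For Rad21, 51 of 54 replicate 1 peaks and 48 of 63 replicate 2 peaks lay in shared regions, and the others were lower, with median folds of 4.72 and 5.85 against 9.18 and 8.94. For H3K27ac this order did not hold in replicate 1: the 14 peaks outside shared regions had a median fold of 3.28, against 2.85 for the 15 inside. The highest of these 14, chosen after their values were seen, had a fold of 11.9 in an exon of Kpnb1, 45804 bp upstream of Tbx21, and −log10 q of 32.8. Near Gzmb, where no H3K27ac region was shared, 2 replicate 1 peaks had folds of 7.74 and 5.36 at 41521 and 34434 bp upstream. Near Gzma an H3K27ac peak of replicate 1 had a fold of 6.72 at 29390 bp downstream, in an intron of Cdc20b. A Rad21 peak of replicate 2 had a fold of 10.5 at 38828 bp upstream of Gzma, beside an H3K27ac peak of replicate 1 with a fold of 3.78, and neither had a peak in the other replicate.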
